A study of Mus musculus with 34 samples.

Results

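The genes described here are 9 components of Polycomb repressive complex 2 (PRC2), namely Ezh1, Ezh2, Eed, Suz12, Aebp2, Jarid2, Mtf2, Phf19 and Rbbp4, together with the histone demethylase gene Kdm6b, measured by RNA sequencing in mouse cumulus cells (CCs). They were found by symbol, and these 10 genes stand on 10 of the 25965 entries of the count table, 1 entry each. The list was selected on the data themselves, since Aebp2 and Kdm6b were included because they were lower in the libraries of leptin-injected mice and in those of mice fed a high-fat diet for 4 weeks. For both of those comparisons the values of all 10 genes are therefore given as a description, and no p or call of a fit is read for them.

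PRC2 places methyl groups on lysine 27 of histone H3. The trimethylated form, H3K27me3, marks genes that are kept silent, and the complex is best known for silencing Hox and other developmental genes. EZH1 or EZH2 carries the catalytic domain, EED and SUZ12 are needed for activity, and RBBP4 or RBBP7 binds histones. AEBP2 and JARID2 join one form of the complex, and MTF2, PHF19 and PHF1 join another. KDM6B and its relative KDM6A remove the mark. CCs, the granulosa cells next to the oocyte, respond with it to the ovulatory stimulus.

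The 34 libraries came from female C57BL/6J mice that entered the protocols at 8 weeks of age, and each mouse gave 1 library. To raise leptin without obesity, mice were injected intraperitoneally with saline (16 C, n = 3) or leptin (16 L, n = 5; 100 μg per day per the labels) for 16 days. In the diet-induced obesity protocol, 4 weeks on chow diet (CD, n = 5) or high-fat diet (HFD, n = 5) and 16 weeks on CD (n = 6) or HFD (n = 7) were studied, and 3 more libraries were from mice that gained little weight during 16 weeks of HFD (low gainers). Fat supplied 11% of the energy of CD and 58% of that of HFD per the labels. The methods of the study give slightly different fat contents. All mice were superovulated before collection, and a library was made from about 50 CCs. Replicates carry the numbers of their labels. The 16 C libraries are 1, 2 and 3, those of 16 L 18, 19, 20, 21 and 23, those of 4-week CD 1, 2, 7, 8 and 11, and those of 4-week HFD 3, 4, 5, 13 and 14. The 16-week CD libraries are 1, 2, 5, 8, 9 and 13, those of 16-week HFD 6, 10, 11, 12, 14, 15 and 16, and the low gainers 21, 22 and 23. Values of a group of up to 5 libraries are listed in that order.

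Promoter sequence is shown for both genes of the catalytic subunit, whose ratio differed between the 4-week and 16-week HFD libraries without overlap, and for Aebp2, on which the list was selected. Sequences are from RefSeq on GRCm38.p6, in which 9 of the 10 genes had promoter entries, 13 in all. They run 5′ to 3′ on the gene's strand, and capitals mark CCAAT boxes (CCAAT or its reverse complement ATTGG). Ezh1 is shown for the 250 bases before its start on chromosome 11, at chr11:101226464-101226713 (minus strand). Ezh2 is shown for the 125 bases at chr6:47595059-47595183 (minus strand) that hold no annotated exon of the gene. Aebp2 is shown for the 250 bases before the second of its 3 annotated starts, at chr6:140624659-140624908 (plus strand), a window free of exons that was chosen with its CpG count known.
Ezh1: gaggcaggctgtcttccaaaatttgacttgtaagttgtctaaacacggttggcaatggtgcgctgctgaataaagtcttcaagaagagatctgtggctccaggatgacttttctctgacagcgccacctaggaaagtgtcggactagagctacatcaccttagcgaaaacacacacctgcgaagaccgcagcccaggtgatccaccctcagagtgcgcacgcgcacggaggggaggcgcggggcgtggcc
Ezh2: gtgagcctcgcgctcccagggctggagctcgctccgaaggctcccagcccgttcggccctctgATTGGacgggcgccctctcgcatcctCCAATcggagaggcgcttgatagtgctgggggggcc
Aebp2: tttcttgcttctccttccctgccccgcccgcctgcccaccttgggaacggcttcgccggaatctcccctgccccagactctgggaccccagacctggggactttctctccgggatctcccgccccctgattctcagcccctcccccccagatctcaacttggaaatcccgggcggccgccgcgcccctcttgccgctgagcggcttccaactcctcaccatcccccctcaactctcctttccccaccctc

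The letters CCAAT on either strand, which 33.8% of 32851 annotated mouse promoter windows of 250 bases hold, were found 3 times in the whole Ezh2 window and 0 times in the Ezh1 window and in this Aebp2 window. CpG dinucleotides numbered 23 in the whole Ezh2 window, 14 in that of Ezh1 and 14 in this window of Aebp2, against a median of 6 over all windows. The windows before the other starts of Aebp2, at chr6:140622413-140622662 and chr6:140626635-140626884, held 1 and 3 CpG, and the latter also held 1 CCAAT box. The cAMP response element TGACGTCA (in 1.55% of all windows) and the STAT motif TTCNNNGAA (7.02%) were found in none of the 13 windows of these genes, searched on both strands. The E2F-like letters TTTNNCGC (4.28%) were found in the windows of Suz12 and Phf19. These matches describe the letters alone.

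Levels are given as normalised CPM, which are counts scaled to a common library total (CPM) after adjustment of all 34 libraries by the trimmed mean of M values (TMM). The libraries held 1104611 to 13207018 counts, with a median of 4035575.5. The 13 CC and granulosa markers, all of them detected in every group, summed to between 3129 and 7967 RPM (CPM without TMM scaling) in 33 libraries, but to 838 RPM in 16 L replicate 18, where the 10 oviduct epithelium markers summed to 30040 RPM and the red blood cell markers to 9805 RPM. In 16 L replicates 20, 21 and 23 the oviduct markers summed to 1463, 2264 and 395 RPM, against 19.6 to 70.7 RPM in 16 C. The 10 macrophage and leukocyte markers summed to 1692 and 1917 RPM in 16 L replicates 20 and 23 (103 to 487 RPM in 16 C), the red blood cell markers to 2549 RPM in replicate 21 (1.06 to 19.3 RPM in 16 C) and the 7 theca and stroma markers to 1512 RPM in replicate 18 (0.559 to 2.42 RPM in 16 C). The 10 oocyte markers summed to 384 RPM in 4-week HFD replicate 5 and to at most 14.9 RPM in the other libraries. Among the 16-week CD libraries, the scaling factors of replicates 1 and 2 (1.37 and 1.33) lay with those of the 4-week libraries (1.11 to 1.39), and those of the other 4 lay between 0.762 and 0.989. The part of these differences in the values below was not tested, and the fold changes without these libraries are given with each comparison. In such bulk libraries fewer cells of a type and less RNA per cell cannot be told apart.

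**Figure D1:**
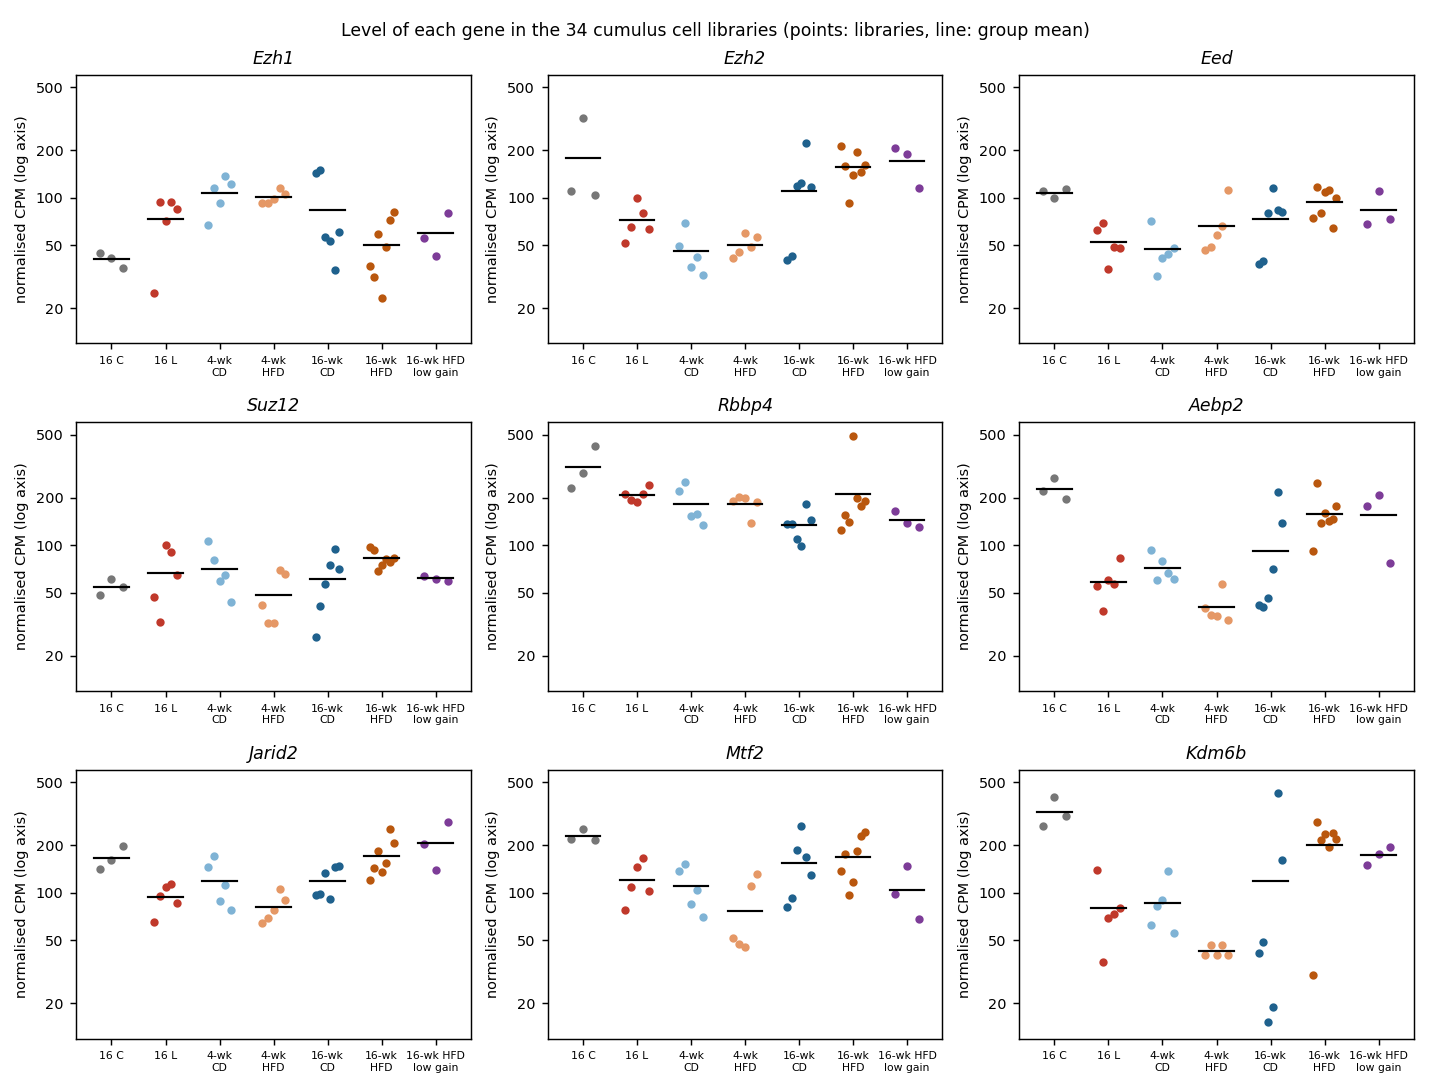
Normalised CPM (log axis) of the 9 genes with more than a few reads, in the 34 libraries by group, with 1 point per library and a line at each group mean. Kdm6b spans 15.2 to 425 CPM, with the 5 libraries of 4-week HFD between 40.3 and 46.7 CPM.

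Per kilobase of exon, the mean of the 7 group means of normalised CPM was highest for Mtf2 (24.2 CPM per kb), Rbbp4 (22.5) and Kdm6b (21.1), followed by Eed (19.6), Ezh2 (16.8), Jarid2 (14.1), Suz12 (12.9), Aebp2 (11.6) and Ezh1 (9.88). Phf19 stood far below at 0.0176 CPM per kb. All values that follow are CPM of the whole gene, without division by length. The highest group mean was 7.54 times the lowest for Kdm6b, 5.59 times for Aebp2 and 3.85 times for Ezh2, and between 1.70 and 2.98 times for the other genes except Phf19. When the groups were ordered by the mean of a gene, every pair of neighbouring groups overlapped in its libraries, for each of the 10 genes.

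Ezh1 and Ezh2, the alternative catalytic subunits, were set oppositely across the groups. Ezh1, on chromosome 11 (101191115 to 101226463, minus strand), was read at 67.4, 115, 93.2, 136 and 122 CPM in 4-week CD and 92.2, 92.8, 98.6, 115 and 105 CPM in 4-week HFD. It was lower in 16 C, at 44.7, 41.6 and 35.9 CPM, and covered 24.9, 93.5, 71.0, 93.7 and 84.7 CPM in 16 L. All 3 saline libraries lay within the span of the leptin libraries, below 4 of them and above replicate 18, the library with oviduct markers. Over 16 weeks Ezh1 covered 35.0 to 149 with a median of 58.7 CPM in CD, 23.4 to 80.9 with a median of 48.6 CPM in HFD and 55.9, 42.9 and 79.6 CPM in the low gainers. The top of the 16-week CD range was replicates 1 and 2 (144 and 149 CPM), while its other 4 libraries had 35.0 to 60.8 CPM.

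Ezh2, on chromosome 6 (47530274 to 47595341, minus strand), was lowest after 4 weeks, at 49.6, 69.7, 36.4, 42.0 and 32.6 CPM in CD and 41.8, 45.6, 59.7, 48.9 and 56.5 CPM in HFD. Values were 109.7, 317 and 104 CPM in 16 C and 51.4, 65.5, 98.9, 79.9 and 63.4 CPM in 16 L, so that every leptin library lay below every saline library. A single library, 16 C replicate 2, was high among the controls, and without it the fitted log2 fold change of Ezh2 in 16 L moved from -1.33 to -0.57. At 16 weeks Ezh2 covered 40.3 to 220.2 with a median of 118 CPM in CD, 93.2 to 212 with a median of 158 CPM in HFD and 207, 189 and 114 CPM in the low gainers. Replicates 1 and 2 of 16-week CD were again the pair apart, with 40.3 and 42.8 CPM.

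The ratio of Ezh1 reads to Ezh2 reads within a library does not depend on how libraries are scaled. On the log2 scale it was 1.22 ± 0.62 (SD, n = 5) in 4-week CD and 1.00 ± 0.20 (SD, n = 5) in 4-week HFD, above 0 in 5 of 5 libraries of each. It was -1.92 ± 0.88 (SD, n = 3) in 16 C, with 0 of 3 libraries above 0, and -0.07 ± 0.67 (SD, n = 5) in 16 L, with 3 of 5 above 0. It was -1.72 ± 0.81 (SD, n = 7) in 16-week HFD and -1.52 ± 0.87 (SD, n = 3) in the low gainers, below 0 in all of those libraries. The 16-week CD libraries were split, with 1.83 and 1.80 in replicates 1 and 2 and -2.65 to -0.94 in the other 4. Mice of the 4-week and 16-week groups differed in age and time on diet together, and no test was run on the ratio. The libraries also differed in their scaling factors, with 1.37 and 1.33 in 16-week CD replicates 1 and 2 and 1.11 to 1.39 in the 4-week groups. The factors were 0.640 to 0.738 in 16 C, 0.873 to 1.32 in 16 L, 0.724 to 0.892 in 16-week HFD and 0.827 to 0.973 in the low gainers. The part of age, time on diet or a difference between sets of libraries was not tested. Divided by exon length, each group had the same number of libraries with more Ezh1 than Ezh2.

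**Figure D2:**
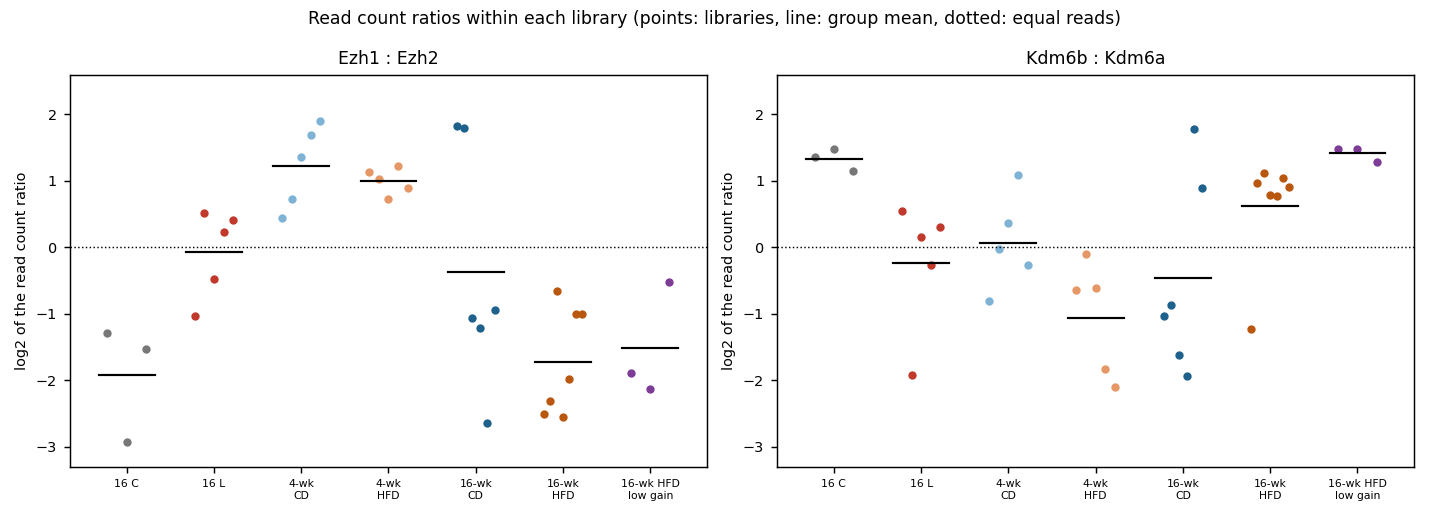
Log2 of the read count ratio of Ezh1 to Ezh2 and of Kdm6b to its relative Kdm6a within each library, by group, with 1 point per library, a line at the group mean and a dotted line at equal reads. All 10 libraries of the 4-week groups have more Ezh1 than Ezh2 reads, and all 10 libraries of 16-week HFD and low gainers have fewer.

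Eed encodes the WD40 subunit that binds H3K27me3 and lies on chromosome 7 (89954656 to 89980983, minus strand). The 16 C libraries had 109.7, 99.7 and 113 CPM and the 16 L libraries 62.8, 69.0, 35.3, 48.9 and 48.2 CPM, without overlap between the groups. After 4 weeks its libraries overlapped, at 71.5, 32.2, 41.7, 44.3 and 47.8 CPM in CD and 46.8, 48.7, 58.5, 66.2 and 112 CPM in HFD, where replicate 14 was the highest. At 16 weeks Eed covered 38.2 to 115 with a median of 80.7 CPM in CD, 64.5 to 116 with a median of 99.3 CPM in HFD and 68.0, 109.7 and 73.9 CPM in the low gainers.

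Suz12 encodes the scaffold on which the accessory proteins assemble and lies on chromosome 11 (79993106 to 80034123, plus strand). Its group means were the closest together of the 9 genes with enough reads. The 16 C libraries had 48.4, 61.6 and 54.4 CPM and the 16 L libraries 46.8, 32.8, 101, 90.2 and 64.8 CPM, which lay on either side of the controls. After 4 weeks it was read at 107, 80.4, 59.2, 65.1 and 43.8 CPM in CD and 41.7, 32.1, 32.4, 69.9 and 66.2 CPM in HFD. At 16 weeks it covered 26.5 to 95.3 with a median of 63.9 CPM in CD and 69.1 to 98.1 with a median of 81.6 CPM in HFD, and the low gainers had 64.1, 61.0 and 59.8 CPM. All 3 low gainers lay below all 7 libraries of 16-week HFD.

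Rbbp4 encodes a histone-binding protein that also serves complexes other than PRC2, and lies on chromosome 4 (129307100 to 129335370, minus strand). It was read at 230.1, 287 and 423 CPM in 16 C and 212, 193, 188, 211 and 239 CPM in 16 L, and at 219, 250.8, 154, 157 and 134 CPM in 4-week CD and 189.8, 202, 198, 139 and 187 CPM in 4-week HFD. Both pairs of groups overlapped. At 16 weeks it covered 99.4 to 182 with a median of 137 CPM in CD, 124 to 488 with a median of 176 CPM in HFD and 164, 137 and 131 CPM in the low gainers, with the top of the HFD range set by replicate 12 alone. Its paralogue Rbbp7 was more abundant, with group means from 344 CPM in 16 C to 648 CPM in the low gainers, and passed the test in none of the 5 comparisons.

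Aebp2, a zinc finger protein of the JARID2-containing form, lies on chromosome 6 (140622449 to 140678472, plus strand). Its level was 219, 265 and 195 CPM in 16 C and 55.3, 38.3, 60.1, 57.2 and 82.7 CPM in 16 L. The highest leptin library lay at 82.7 CPM and the lowest saline library at 195 CPM. After 4 weeks it was read at 93.2, 60.8, 79.1, 67.1 and 61.4 CPM in CD and 40.0, 36.0, 35.5, 57.0 and 33.7 CPM in HFD, and these groups did not overlap either, by 57.0 against 60.8 CPM. At 16 weeks Aebp2 covered 40.7 to 218 with a median of 58.6 CPM in CD, 91.6 to 248 with a median of 147 CPM in HFD and 178, 209 and 77.0 CPM in the low gainers. Among the 16-week CD libraries, replicates 9 and 13 had 218 and 137 CPM, and the other 4 had 40.7 to 70.9 CPM.

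Jarid2, which recruits the complex and lacks the demethylase activity of its Jumonji relatives, lies on chromosome 13 (44729474 to 44921643, plus strand). Saline libraries had 141, 162 and 197 CPM and leptin libraries 65.1, 95.1, 108, 113 and 86.4 CPM, without overlap. After 4 weeks it was read at 146, 170.4, 89.1, 112 and 78.0 CPM in CD and 64.3, 69.0, 78.3, 106 and 90.5 CPM in HFD, with overlap. At 16 weeks it covered 91.7 to 148 with a median of 115 CPM in CD, 121 to 252 with a median of 153 CPM in HFD and 203, 139 and 278 CPM in the low gainers, whose mean was the highest of all groups.

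Mtf2, one of the Polycomb-like proteins that bind DNA rich in CpG, lies on chromosome 5 (108065674 to 108109004, plus strand). It was read at 219, 254 and 216 CPM in 16 C and 78.0, 108, 146, 167 and 102 CPM in 16 L, without overlap. After 4 weeks it was read at 137, 152, 84.9, 104 and 70.7 CPM in CD and 52.0, 47.4, 45.3, 109.9 and 131 CPM in HFD, where replicates 13 and 14 lay well above the other 3. At 16 weeks Mtf2 covered 81.6 to 266 with a median of 149.7 CPM in CD, 97.1 to 241 with a median of 176 CPM in HFD and 97.5, 148 and 68.2 CPM in the low gainers. Its annotated span overlaps Tmed5 on the opposite strand, which had 29382 reads over all libraries against 20145 for Mtf2, and whether the counting used strand is not given in the sources used here.

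Phf19, another Polycomb-like gene, had 15 reads in all 34 libraries together, too few for the filter on low counts in each comparison. It was read in 9 libraries, at no more than 3 reads and 0.781 CPM each, and in none of the 16 C libraries, in which a count of 0 allows up to 3 reads per library. Phf1, the remaining Polycomb-like gene, was read at 0, 3.19 and 4.63 CPM in 16 C and 5.29, 12.3, 13.9, 24.8 and 24.0 CPM in 16 L. Its group means were 17.9 ± 6.76 (SD, n = 5) CPM in 4-week CD and 15.3 ± 5.83 (SD, n = 5) CPM in 4-week HFD, but 1.11 ± 0.708 (SD, n = 7) CPM in 16-week HFD and 2.76 ± 0.186 (SD, n = 3) CPM in the low gainers. In 16-week CD, Phf1 stood at 16.5 and 17.0 CPM in replicates 1 and 2 and at 0 to 2.43 CPM in the other 4.

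Kdm6b, an H3K27 demethylase known as an inducible gene in several cell types, lies on chromosome 11 (69398508 to 69413675, minus strand). It was read at 263, 401 and 308 CPM in 16 C and 139.7, 36.6, 69.7, 73.0 and 80.0 CPM in 16 L. The highest leptin library was replicate 18, and it still lay below the lowest saline library. After 4 weeks Kdm6b was read at 62.9, 82.2, 90.6, 138 and 55.8 CPM in CD and 40.7, 46.7, 40.3, 46.6 and 40.3 CPM in HFD, without overlap and with the smallest spread of its 7 groups. At 16 weeks the CD libraries ranged over 28-fold, from 15.2 and 19 CPM in replicates 5 and 8, through 41.5 and 49.1 CPM in replicates 1 and 2, to 162 CPM in replicate 13 and 425 CPM in replicate 9. In 16-week HFD, replicate 6 had 30.3 CPM and the other 6 had 195 to 278 CPM, and the low gainers had 149.6, 175 and 195 CPM. An antisense gene, 1700064E03Rik, overlaps Kdm6b and had 284 reads in all against 18374 for Kdm6b.

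Kdm6a, the other H3K27 demethylase gene, varied less than Kdm6b, with group means from 65.5 CPM in the low gainers to 128 CPM in 16 C. The log2 ratio of Kdm6b to Kdm6a reads was 1.33 ± 0.17 (SD, n = 3) in 16 C and -0.23 ± 0.99 (SD, n = 5) in 16 L. It was 0.07 ± 0.71 (SD, n = 5) in 4-week CD and -1.06 ± 0.87 (SD, n = 5) in 4-week HFD, with 2 of 5 and 0 of 5 libraries above 0. In 16-week CD it was -0.47 ± 1.47 (SD, n = 6), in 16-week HFD 0.63 ± 0.83 (SD, n = 7) and in the low gainers 1.41 ± 0.11 (SD, n = 3). The low gainers and the saline controls thus had the highest mean ratios, with 3 of 3 libraries above 0 in each.

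In leptin-injected mice, the fitted log2 fold change against saline was -2.02 (SE 0.43) for Kdm6b and -1.95 (SE 0.33) for Aebp2, for which the list was selected. It was -1.33 (SE 0.44) for Ezh2, -1.02 (SE 0.31) for Eed, -0.94 (SE 0.33) for Mtf2, -0.84 (SE 0.31) for Jarid2 and -0.59 (SE 0.32) for Rbbp4. Suz12, with 0.28 (SE 0.41), and Ezh1, with 0.84 (SE 0.44), had positive values. The groups did not overlap, with the leptin libraries lower, for 6 of the 9 (Ezh2, Eed, Aebp2, Jarid2, Mtf2 and Kdm6b), which was so for 11.2% of the 11723 genes tested, and 23.4% did not overlap in either direction. Since the selection used this contrast, nothing is read from this count.

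The size of these values depended on how the libraries were scaled. Over all genes tested, the median log2 fold change was 0.27 with TMM scaling and 1.07 after scaling by total counts. By total counts, Kdm6b stood at -1.27 and Aebp2 at -1.12, Ezh2 at -0.43, Eed at -0.25, Mtf2 at -0.09 and Jarid2 at 0.01. Rbbp4 stood at 0.22, Suz12 at 1.14 and Ezh1 at 1.72. On the first scale 7 of 9 genes were below 0 and on the second 5 of 9, and on either scale 7 of 9 lay below the median of all genes. The selection used this contrast, and nothing is read from these counts. On RPM, without TMM scaling, the leptin libraries lay wholly below the saline libraries for Aebp2 and Kdm6b alone, and wholly above them for Suz12. 

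Leaving out 16 L replicate 18, the library with the most oviduct, red blood cell and stroma markers, gave -2.42 for Kdm6b, -2.02 for Aebp2, -1.33 for Ezh2, -1.18 for Eed, -0.90 for Mtf2, -0.81 for Jarid2, -0.68 for Rbbp4, 0.30 for Suz12 and 0.98 for Ezh1. When replicate 20, 21 or 23 was left out in its place, Kdm6b lay between -1.998 and -1.96, Aebp2 between -2.08 and -1.94, Ezh2 between -1.45 and -1.26 and Eed between -0.99 and -0.90. Mtf2 lay between -1.08 and -0.87, Jarid2 between -0.91 and -0.79, Rbbp4 between -0.62 and -0.54, Suz12 between 0.10 and 0.32 and Ezh1 between 0.74 and 0.87. The sign of each of the 9 genes was the same without any 1 of these 4 libraries. Each such fit still held the others of the 4, so it gives no values free of the markers of other cells.

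After 4 weeks of HFD the fitted log2 fold change against CD was -1.03 (SE 0.26) for Kdm6b and -0.85 (SE 0.22) for Aebp2. It was -0.56 (SE 0.26) for Jarid2, -0.56 (SE 0.30) for Suz12 and -0.51 (SE 0.34) for Mtf2. The values were closer to 0 for Ezh1, with -0.10 (SE 0.23), Rbbp4, with -0.021 (SE 0.24), and Ezh2, with 0.12 (SE 0.24), and Eed had 0.47 (SE 0.28). Aebp2 and Kdm6b were the 2 genes of 9 that did not overlap between the groups, on CPM and on RPM, which held for 3.73% of the 11727 genes tested lower and 6.61% in either direction. As above, the selection used this contrast, and nothing is read from the count. Without 4-week HFD replicate 5, the library with oocyte markers, Kdm6b stood at -0.99, Aebp2 at -0.80, Jarid2 at -0.54, Suz12 at -0.43, Mtf2 at -0.36, Ezh1 at -0.08, Rbbp4 at -0.04, Ezh2 at 0.07 and Eed at 0.53.

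**Figure D3:**
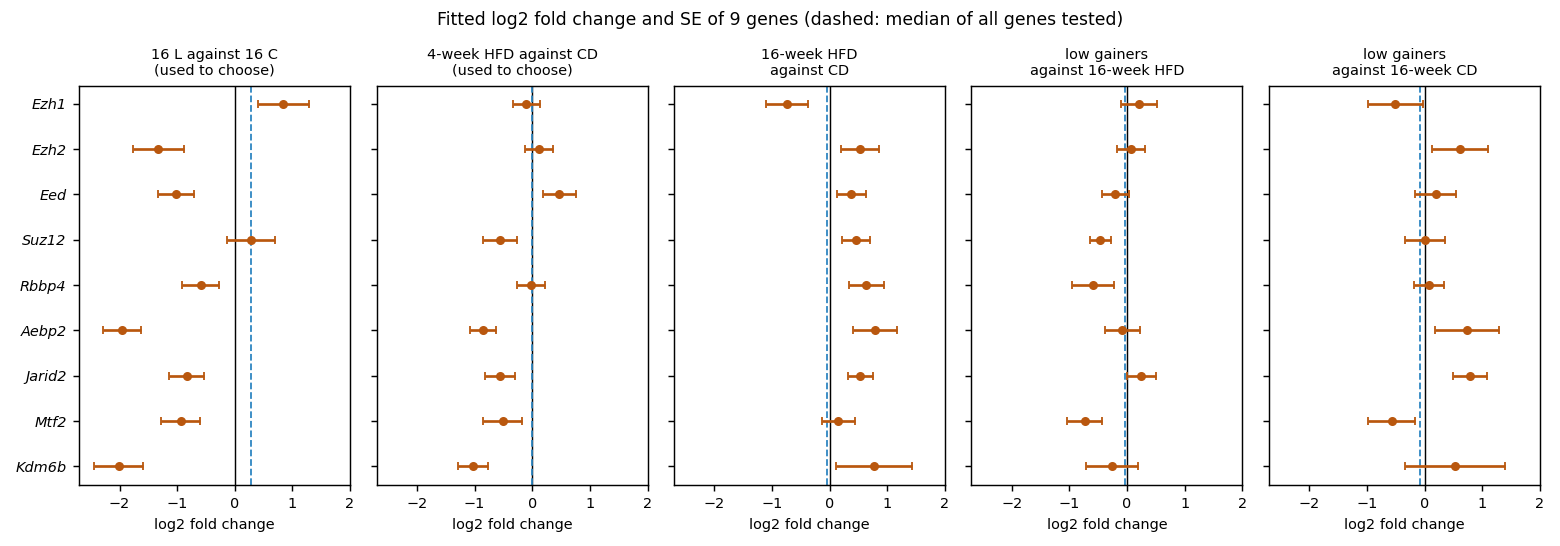
Fitted log2 fold change (point) and SE (bar) of the 9 genes tested in each of 5 comparisons, with a dashed line at the median of all genes tested. Aebp2 and Kdm6b lie furthest to the left in the leptin comparison (-1.95 and -2.02) and after 4 weeks of HFD (-0.85 and -1.03), the contrasts used to select the list, and to the right of 0 in 16-week HFD (0.78 and 0.77).

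Whether the genes differed after 16 weeks of HFD was tested, since the selection did not use these libraries. No gene of the 9 was called against 16-week CD in the edgeR quasi-likelihood test with Benjamini-Hochberg adjustment, where 0.0276% of 10861 genes were called. Of the 9, 2 had an unadjusted p under 0.05 (Jarid2 and Rbbp4), as had 2747 of all 10861 genes tested, and DESeq2 called 0. Jarid2 had a log2 fold change of 0.53 (SE 0.22), with a 95% interval of 0.069 to 0.98 and an adjusted p of 0.145, and Rbbp4 had 0.64 (SE 0.30) and an adjusted p of 0.194. Aebp2 had 0.78 (SE 0.38), an interval of -0.017 to 1.58 and an adjusted p of 0.205. Kdm6b had 0.77 (SE 0.66), an interval of -0.62 to 2.16 and an adjusted p of 0.458. The intervals, which use the degrees of freedom of the test, reach for both Aebp2 and Kdm6b from below 0 to more than 1.5 on the log2 scale.

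Ezh1 had the only negative value among the 9 genes in 16-week HFD, -0.74 (SE 0.37), with an adjusted p of 0.209 in the same test, and Ezh2 had 0.52 (SE 0.33). Suz12 had 0.45 (SE 0.24), Eed 0.38 (SE 0.25) and Mtf2 0.15 (SE 0.29), with adjusted p of 0.242, 0.34 and 0.764 by edgeR. The median of the 9 genes was 0.52 against -0.05 for all genes tested, and none of the 9 separated the groups, as 0.994% of all genes did. With any 1 library left out, each of the 9 genes kept its sign, but the calls changed. Without 16-week CD replicate 9, the library with 425 CPM of Kdm6b, both Kdm6b (1.83, adjusted p = 0.0308) and Aebp2 (1.25, adjusted p = 0.0179) were called by edgeR. That fit called 2217 of all genes tested, against 3 with every library, so these calls are not particular to the 2 genes. Without 16-week CD replicates 1 and 2, the pair whose scaling factors lay with the 4-week libraries, Ezh1 stood at 0.03, Mtf2 at -0.09, Ezh2 at 0.15 and Aebp2 at 0.45, and 0 of 9 genes were called.

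The low gainers, mice that stayed lighter on 16 weeks of HFD, were compared with 16-week HFD and with 16-week CD, and both comparisons share libraries with the preceding one and with each other. Against 16-week HFD, 20.7% of 11258 genes were called, but 0 of the 9 genes. An unadjusted p under 0.05 was found for 2 of the 9 and for 4082 of all genes tested. Mtf2 had a log2 fold change of -0.74 (SE 0.30), a 95% interval of -1.37 to -0.11 and an adjusted p of 0.0839 in the edgeR quasi-likelihood test with Benjamini-Hochberg adjustment. Suz12 had -0.46 (SE 0.19), an interval of -0.86 to -0.07 and an adjusted p of 0.084. DESeq2 called Suz12 (-0.45, adjusted p = 0.048), and Mtf2 was called (-0.84, adjusted p = 0.0457) when 16-week HFD replicate 11, its lowest HFD library, was left out. Fits of this comparison with 1 library left out called 596 to 2737 of all genes. Nothing is read from these 2 calls. Suz12 was the 1 gene of 9 whose groups did not overlap, which held for 20.4% of all genes. The 13 CC and granulosa markers summed to 5674 to 6564 RPM in the low gainers and to 3129 to 4381 RPM in 16-week HFD, without overlap. Of these sums, Cyp11a1 gave 3762 to 4479 RPM and 912 to 1975 RPM. The medians of Cyp11a1, Amhr2, Inha, Fshr, Star and Ptx3 were higher in the low gainers. Those of Foxl2, Inhba, Inhbb, Nr5a2, Tnfaip6, Has2 and Ptgs2 were lower. The part of the difference in the sums in the values of this comparison was not tested.

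For the other 7 genes the intervals allow differences of either sign between low gainers and 16-week HFD. Kdm6b had -0.27 (SE 0.45) and an interval of -1.24 to 0.71, and Aebp2 had -0.083 (SE 0.30) and an interval of -0.72 to 0.55. Ezh2 had 0.071 (SE 0.25), Ezh1 0.21 (SE 0.32), Jarid2 0.24 (SE 0.25), Eed -0.20 (SE 0.24) and Rbbp4 -0.59 (SE 0.36), with adjusted p from 0.249 to 0.869 over these 7 genes by edgeR. The relative Kdm6a fell in the low gainers, by 0.84 on the log2 scale (SE 0.24, adjusted p = 0.0229 by edgeR), from 113 ± 23.7 (SD, n = 7) to 65.5 ± 13.5 (SD, n = 3) CPM, although the libraries overlapped. It was not called with scaling by total counts (-0.63) or with all 34 libraries in 1 fit (-0.79). The sum of the CC and granulosa markers, though not each marker, was higher in the low gainers.

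Against 16-week CD, 0 of the 9 genes were called in the low gainers by edgeR's quasi-likelihood test, as were 0.00861% of 11620 genes, and 7.52% of all genes but none of the 9 separated the groups. An unadjusted p under 0.05 was found for 1 gene of the 9, Jarid2, and for 1299 of all 11620 genes. Jarid2 had a log2 fold change of 0.79 (SE 0.29), an interval of 0.16 to 1.42 and an adjusted p of 0.365. Aebp2 had 0.73 (SE 0.55), Ezh2 0.61 (SE 0.48), Kdm6b 0.53 (SE 0.87), Ezh1 -0.51 (SE 0.47) and Mtf2 -0.57 (SE 0.41), with adjusted p of at least 0.625. Eed, Rbbp4 and Suz12 had 0.19 (SE 0.36), 0.082 (SE 0.26) and 0.0065 (SE 0.35). DESeq2 called 0 of these genes. Without 16-week CD replicates 1 and 2 again 0 of 9 were called, and Ezh1 stood at 0.22, Suz12 at -0.27 and Eed at -0.09. For Phf19 an exact two-sided permutation test of mean log2(RPM + 1) gave p = 0.776 for 16-week HFD against CD, p = 0.6 for low gainers against HFD and p = 0.81 for low gainers against CD, from 2 to 4 reads per group.

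Around these genes, 118 others were listed by role, as further PRC2 subunits, PRC1, the Polycomb deubiquitinase PR-DUB, the KMT2 complexes that methylate lysine 4 of histone H3, other lysine demethylases and classical developmental genes marked by PRC2. In 16 L, 4 of the 84 tested rose and 3 fell against 16 C, by edgeR with Benjamini-Hochberg adjustment over all genes. These 7 are 8.33% of the genes tested, close to the 8.56% called among all genes (4.5% lower). The largest rises were those of Cbx6, a PRC1 chromobox gene (log2 fold change 3.40, adjusted p = 0.0317, and 2.66 without 16 L replicate 18), and Men1, which encodes the KMT2 partner menin (2.06, adjusted p = 0.0411). The largest falls were those of the H3K4 demethylase genes Kdm5b (-2.28, adjusted p = 0.0140) and Kdm5c (-2.05, adjusted p = 0.0260). Kdm5b averaged 646 ± 114 CPM (SD, n = 3) in 16 C and 134 ± 41.7 CPM (SD, n = 5) in 16 L. Each of these 7 calls was lost in at least 5 of the 8 fits that left out 1 library. Kdm6a had -0.52 (SE 0.36), Rbbp7 0.50 (SE 0.45) and Phf1 2.48 (SE 0.84), with adjusted p of 0.331, 0.461 and 0.0853 by edgeR.

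After 4 weeks of HFD, 0 of the 86 listed genes tested rose and 8 fell, with PRC1 (3 of 25), KMT2 complexes (3 of 16), PR-DUB (1 of 10) and other lysine demethylases (1 of 15) represented. They are 9.3% of the genes tested, where 4.26% of all genes were called and 3.06% fell. The largest falls were those of Mbd6, a PR-DUB partner (-2.14, adjusted p = 0.0168), and the H3K4 methyltransferase gene Setd1b (-1.90, adjusted p = 0.0197), by edgeR with Benjamini-Hochberg adjustment. Mbd6 averaged 35.7 ± 17.5 CPM (SD, n = 5) in 4-week CD and 8.24 ± 2.03 CPM (SD, n = 5) in HFD, and Setd1b 22.3 ± 9.74 and 5.97 ± 1.52 CPM. The number fell from 8 to 0 without 4-week CD replicate 8 and to 1 without 4-week HFD replicate 5, and was 17 without 4-week CD replicate 11. Kdm6a, with 0.38 (SE 0.35), Rbbp7, with 0.24 (SE 0.39), and Phf1, with -0.26 (SE 0.32), were not called.

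After 16 weeks of HFD, 0 of 75 listed genes were called by edgeR and 10 by DESeq2. An unadjusted p under 0.05 was found for 24 of the 75, and for 2747 of all 10861 genes tested. The low gainers had 0 called of 85 against 16-week CD. There 10 of the 85, and 1299 of all 11620 genes, had an unadjusted p under 0.05. Against 16-week HFD, 10 of 80 rose and 9 fell in the low gainers, or 23.8%, close to the 20.7% of all genes called. Cxxc1, a subunit that brings H3K4 methyltransferases to CpG islands, rose the most (1.60, adjusted p = 0.00266), from 8.31 ± 2.51 CPM (SD, n = 7) to 26.6 ± 13.1 CPM (SD, n = 3), and Men1 rose by 1.54 (adjusted p = 0.0178). Lcorl, which encodes a PRC2 accessory protein, fell the most (-1.50, adjusted p = 0.00103), from 73.0 ± 10.6 to 26.7 ± 6.70 CPM, followed by the H3K4 methyltransferase gene Kmt2c (-1.09, adjusted p = 0.00287), all by the edgeR quasi-likelihood test with Benjamini-Hochberg adjustment. By list, 4 of 16 KMT2 genes rose and 3 fell, 3 of 10 PR-DUB genes rose and 1 fell, and 2 of 3 further PRC2 subunits fell (Lcorl and Lcor).

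**Figure D4:**
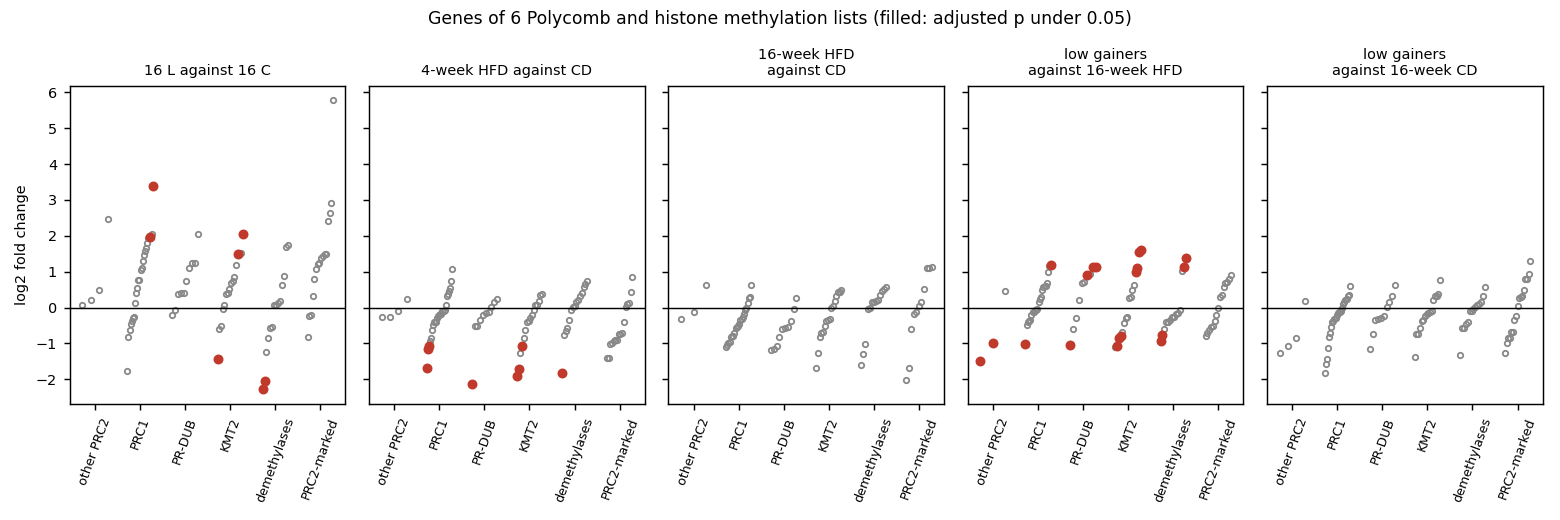
Fitted log2 fold change of each tested gene of the 6 lists in each of 5 comparisons, 1 point per gene, with genes past an adjusted p of 0.05 filled. Called genes lie on both sides of 0 in leptin-injected mice and in low gainers against 16-week HFD, below 0 after 4 weeks of HFD, and are absent from the other panels.

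Of the 42 classical PRC2-marked genes, which include 31 Hox genes, 18 had a median over 1 CPM and 3 (Hoxa2, Hoxa4 and Hoxd13) had no read in any library. None of those tested was called in any of the 5 comparisons by edgeR with all libraries of the groups. Where 1299 to 4082 of all genes had an unadjusted p under 0.05, between 1 and 5 of the 11 to 17 marked genes tested did. Their median log2 fold change was 1.31 in 16 L, -0.74 in 4-week HFD and 0.05 in 16-week HFD, where the medians of all genes were 0.27, -0.01 and -0.05. In low gainers it was -0.02 against 16-week HFD and 0.03 against 16-week CD. In 4-week HFD, 11 of 16 had negative values, and in 16 L, 3 of 16. The value in 16 L rested on replicate 18, the library with oviduct markers, in which 11 of the 16 had their highest level among the leptin libraries. Without it the median was 0.48, against 0.10 for all genes, with 5 of 14 negative and 2 called (Wt1 and Hoxd8). That fit called 4635 of all genes, against 1004 with every library, and nothing is read from these 2 calls. The median was between 1.29 and 1.35 without replicate 20, 21 or 23. In 4-week HFD the median was -0.73 without replicate 5.

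How the genes varied together between mice of a group was described with the correlation of log2 CPM over the 34 libraries after each group mean was subtracted. These points share scaling factors and depth, so no test is given. Of 36 pairs among the 9 genes, 6 had Pearson's r over 0.5, 10 were below 0, and the median was 0.21. The closest pair was Suz12 and Mtf2 (r = 0.71, Spearman's rho = 0.73, and r = 0.73 without the 2 libraries farthest from the median). Aebp2 and Kdm6b followed (r = 0.68, rho = 0.51), with r = 0.48 without the 2 farthest libraries. Ezh2 went with Suz12 (r = 0.66), Mtf2 (r = 0.60) and Aebp2 (r = 0.52, rho = 0.31), and without the 2 libraries farthest from the median for Ezh2 these were 0.53, 0.58 and 0.30. Ezh1 was set against Eed (r = -0.54), Aebp2 (r = -0.47) and Ezh2 (r = -0.42), and went with Jarid2 alone at a positive r (0.26).

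**Figure D5:**
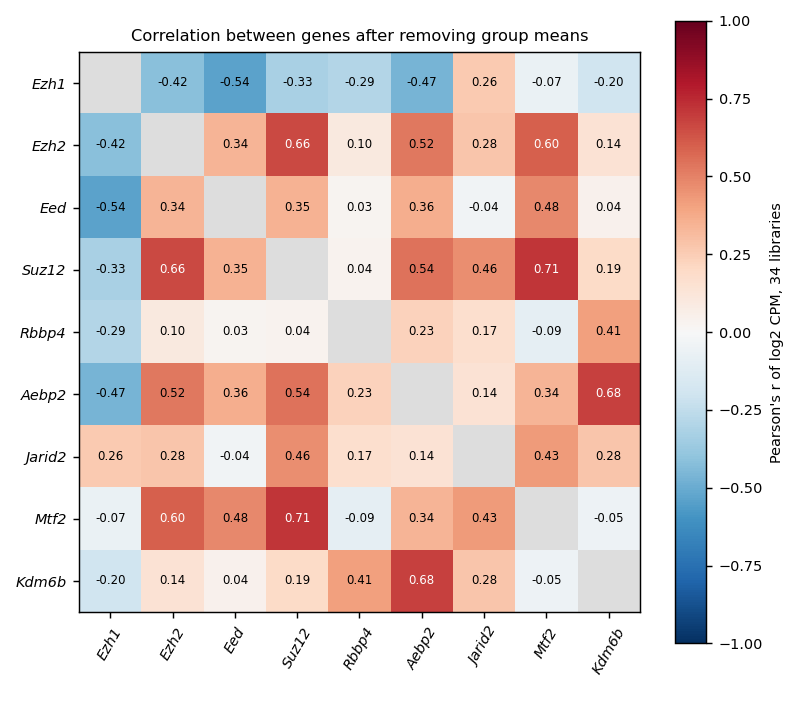
Pearson's r of log2 CPM between the 9 genes over 34 libraries after subtraction of group means, with the value in each cell and colour from blue (negative) to red (positive). Ezh2, Suz12, Mtf2 and Aebp2 have positive r with each other, from 0.34 to 0.71, and the Ezh1 row is mostly negative.

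Among 13236 genes compared in this way, those most like Aebp2 were Mib1 (r = 0.88), Brd1 (r = 0.87) and Chsy1 (r = 0.85). Without the 2 libraries farthest from the median for Aebp2, 16-week CD replicates 9 and 13, these were 0.82, 0.79 and 0.75. The genes most like Kdm6b were Repin1 (r = 0.92), Msi1 (r = 0.91) and Rbm45 (r = 0.91), and without 16-week CD replicate 9 and 16-week HFD replicate 6 these were 0.84, 0.85 and 0.83. With group means kept, r was 0.92, 0.93 and 0.94 for the genes like Aebp2 and 0.94, 0.92 and 0.82 for those like Kdm6b.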

How the data were processed

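RNA of CCs was sequenced in 34 libraries, 1 per mouse, grouped by their labels. The authors captured RNA with oligo-dT (Smart-seq2), made libraries with Nextera XT and deposited 1 table of read counts per gene, whole numbers without normalization. The submitters' processing notes name Trim Galore 0.4.2, HISAT2 2.0.5 and GRCm38, and the counting program, annotation and strand setting are not given in the sources used here. PCR reads carried no molecular identifiers, so limits from counts cover counting error only. Total counts ranged from 1104611 to 13207018 per library. None of the 72 pairs of libraries within groups was identical (chi-square of at least 3.26 per degree of freedom).

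The groups of each comparison were fitted alone in R 4.3.3 with edgeR 4.0.16 (TMM, filterByExpr, robust quasi-likelihood F-test, two-sided), adjusted over all genes tested by Benjamini-Hochberg and called under 0.05. Alternatives were DESeq2 1.42.0, limma-voom 3.58.1 with quality weights, RLE or total-count scaling, no filter, a minimum of 10 counts in every library, 1 fit of all 34 libraries, thresholds of an unadjusted p of 0.05 or an adjusted p of 0.1, and leaving out each library. The fits were also run on simulated counts with known changes. Those counts held no added cells of other types and no split groups, and no result here rests on them. Phf19 was tested on log2(RPM + 1), alternatively log2(RPM + 0.1). Ratios added 0.5 reads, and correlations used log2 CPM with a prior count of 1. Exon lengths and gene positions are from GENCODE on GRCm38, and promoters from RefSeq.

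The 10 genes and the 118 listed genes, all found in the table, 9 by an older symbol, were chosen with earlier results of these data known. Of the listed genes, the text names the 2 largest rises and 2 largest falls called per comparison, Kdm6a, Rbbp7 and Phf1, and for Aebp2 and Kdm6b the 3 most correlated genes. Lcor, Wt1, Hoxd8, the Hox genes without reads and overlapping genes were named after their values were seen. A fit without 16-week CD replicates 1 and 2, and the listed genes under the alternatives, PRC2-marked genes included, were added after seeing the data.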

Additional observations from a re-analysis of the deposited data

Results flagged for a closer look

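Of 55 groups of 4 to 10 libraries checked for 1 value far from the rest by Dixon's criterion, 6 held one, where chance alone marks about 1 in 20 (2.75 groups). In 4-week HFD replicate 13, Aebp2 stood at 57.0 CPM, above the next library at 40.0, and Rbbp4 at 139 CPM, below the next at 187. In 16-week HFD replicate 12, Rbbp4 stood at 488 CPM, and the next library had 199. In 16-week CD replicate 9, Kdm6b stood at 425 CPM, and the next library had 162. In 16-week HFD replicate 6, Kdm6b stood at 30.3 CPM, and the next library had 195, and the log2 ratio of Kdm6b to Kdm6a there was -1.22, where the next was 0.77.

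Every 4-week HFD library lay below the 4-week CD mean, and every 16-week HFD library above the 16-week CD mean, for Aebp2 and Jarid2 on the log2 CPM scale. For Aebp2 the mean differences from CD were -0.84 at 4 weeks and 1.03 at 16 weeks, 1.87 apart. For Jarid2 they were -0.51 and 0.51, 1.02 apart. These differences were not tested, because the 4-week contrast was used to select the genes. The rule was applied to the genes described here alone, so the share of all genes that meet it is not known. Without 16-week CD replicates 1 and 2, the fitted log2 fold change of Aebp2 in 16-week HFD was 0.45.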

How the results depend on the processing

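No paired analysis was possible because the groups compared share fewer than 2 replicate numbers. For the 9 genes other than Phf19, the alternatives gave 333 values with every library kept or without 16-week CD replicates 1 and 2. Of these, 306 were counted as the same, 11 as moved, 1 as newly called and 15 as changed in sign. The cause was not tested. In the contrasts used for selection, the same meant a shift under the SD within groups. A sign change was counted there only for called genes. Jarid2 at up to 0.0055 and Rbbp4 at up to 0.22 in 16 L, and Rbbp4 at up to 0.21 in 4-week HFD, are thus not among the 15. In the other comparisons, the same meant an unchanged sign and side of the threshold, whatever the size. In the contrasts used for selection, the number of the 9 genes past the threshold is no test of them, and nothing is read from it. It is given for its range alone, and calls among all genes are in the next paragraph. In 16 L it was 4 by DESeq2, 8 by limma-voom, 5 with all 34 libraries in 1 fit, 6 at an unadjusted p under 0.05 and 5 at an adjusted p under 0.1, against 2 (Aebp2 and Kdm6b). With 1 library left out it was 0 to 7, where calls among all genes ranged from 30 to 4635. After 4 weeks of HFD it was 5 by limma-voom, 1 without a filter and 0 with all libraries, against 2 (the same genes). With 1 left out it was 0 to 2, where calls among all genes ranged from 8 to 1700. Aebp2 and Kdm6b were each past it in 2 of the 8 fits that left out 1 library in 16 L and in 2 of the 10 after 4 weeks. In 16-week HFD the genes called numbered 2 at an unadjusted p, and 0 to 2 with 1 left out, and in low gainers against HFD 1 by DESeq2, 2 at an unadjusted p and 2 at an adjusted p under 0.1, and 0 to 1 with 1 left out. Against CD, low gainers had 1 at an unadjusted p and 0 with 1 left out.

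Among all genes, 16 L gave 1004 calls against 2382 by DESeq2, 7474 by limma-voom, 3966 by total counts, 504 without a filter, 4383 with all libraries, 3798 at an unadjusted p, 2456 at an adjusted p under 0.1, and 30 (without 16 C replicate 1) to 4635 (without 16 L replicate 18) with 1 left out. After 4 weeks, 499 calls became 1292 by DESeq2, 4052 by limma-voom, 69 with all libraries, 2845 at an unadjusted p, 1253 at an adjusted p under 0.1, and 8 (without CD replicate 8) to 1700 (without CD replicate 11). In 16-week HFD, 3 became 1130 by DESeq2, 5 by limma-voom, 1622 by total counts, 13 without a filter, 1 with at least 10 counts, 1258 with all libraries, 1 without CD replicates 1 and 2, 2747 at an unadjusted p, 1134 at an adjusted p under 0.1, and 1 to 2217 (without CD replicate 9). In low gainers against HFD, 2330 became 487 with all libraries, 4082 at an unadjusted p, and 596 (without low gainer 23) to 2737. Against CD, 1 became 226 by DESeq2, 214 by limma-voom, 0 by total counts, 0 with at least 10 counts, 7 with all libraries, 3 without CD replicates 1 and 2, 1299 at an unadjusted p, and 0 to 1.

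Of the 118 listed genes, calls in 16 L were 7, against 14 by DESeq2, 49 by limma-voom, 34 by total counts, 3 without a filter and 28 with all libraries, and 0 (without 16 C replicate 1) to 35 (without 16 L replicate 18). After 4 weeks 8 became 26 by limma-voom, 2 with all libraries and 0 to 17. In 16-week HFD 0 became 10 by DESeq2, 15 by total counts, 11 with all libraries and 0 to 16 (without CD replicate 9). In low gainers against HFD 19 became 4 with all libraries and 8 (without low gainer 23) to 20, and against CD 0 became 1 by limma-voom and stayed 0 with 1 left out.

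In 16-week HFD, Mtf2 stood at -0.14 by total counts and -0.093 without CD replicates 1 and 2, and Ezh1 at 0.027 without those. In low gainers against HFD, Aebp2 stood at 0.033 by limma-voom and 0.098 by total counts. Against CD, Suz12 stood at -0.012 by DESeq2, -0.072 by limma-voom, -0.014 by RLE, -0.095 by total counts, -0.027 with at least 10 counts and -0.27 without CD replicates 1 and 2, Eed at -0.0050 by limma-voom and -0.094 without those replicates, Rbbp4 at -0.11 by total counts, Ezh1 at 0.22 and Rbbp7 at -0.075 without those replicates, and Phf1 at 0.58 by limma-voom. Kdm6a stood at 0.28 in 16 L by total counts and -0.28 in 4-week HFD by limma-voom, and Rbbp7 at -0.12 there. With 1 library left out, low gainers against HFD ranged from -0.060 to 0.40 for Ezh1, -0.081 to 0.30 for Ezh2, -0.35 to 0.26 for Aebp2 and -0.028 to 0.47 for Jarid2, and against CD from -0.013 to 0.37 for Eed, -0.18 to 0.24 for Suz12 and -0.0082 to 0.26 for Rbbp4. In 4-week HFD, Ezh1 ranged from -0.23 to 0.021, Rbbp4 from -0.12 to 0.13, Phf1 from -0.45 to 0.0020 and Rbbp7 from -0.27 to 0.46. In low gainers against CD, Rbbp7 ranged from -0.0018 to 0.32. Phf19 ranged from -0.10 to 0.033 in 16-week HFD, -0.079 to 0.33 in low gainers against HFD and -0.14 to 0.26 against CD.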
